A study of Mus musculus with 8 samples.

Results

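The 9 genes described here encode core parts of the intrinsic apoptosis pathway: Bax, Bak1, Bcl2, Bcl2l1, Bcl2l11, Bbc3, Pmaip1, Casp9 and Apaf1. They were chosen by name and are 9 of the 54532 genes in the expression table. Each was measured by RNA-seq in 8 libraries of mouse spermatocytes, and the values are FPKM (a fragment count per length of gene, a level scaled for gene length and sequencing depth). All 8 groups were C57BL/6J males. The MFN2 WT controls are labelled Mfn2 loxp/loxp with no Cre, while the study's methods also allow controls with a loxP site in 1 Mfn2 allele only. The MFN2 cKO (conditional knock-out) mice carried Mfn2 loxp/loxp with Stra8-Cre, a transgene that expresses the recombinase in male germ cells from the spermatogonial stage on, so Leydig, Sertoli and other somatic cells kept the gene. Spermatocytes labelled P (pachytene) or L/Z (leptotene or zygotene) were collected at postnatal day (PD) 24 and PD 52 by sedimentation through an albumin gradient. There was 1 library for each of the 8 groups, and the labels do not say whether the P and L/Z libraries of an age and genotype came from the same animals.

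Intrinsic apoptosis is the form of programmed cell death that is decided at the mitochondrial outer membrane. Anti-apoptotic proteins such as BCL2 and BCL-xL (from Bcl2l1) hold the pore-forming effectors BAX and BAK in check. BH3-only proteins such as BIM (Bcl2l11), PUMA (Bbc3) and NOXA (Pmaip1) counter the anti-apoptotic proteins, and PUMA and NOXA are known targets of p53. Once the effectors open the membrane, released cytochrome c assembles APAF1 and caspase-9 into the apoptosome, which starts the caspase cascade. In the testis this pathway is known for removing surplus germ cells in the first wave of spermatogenesis and spermatocytes that fail in meiosis.

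Of the 9 genes, 8 had an FPKM above 1 in at least 1 library and entered the tests, while Bcl2 stayed below it throughout. Among these 8, Bax had the widest ratios of MFN2 cKO to MFN2 WT. It was higher in cKO in both PD 24 pairs and at least 2-fold lower in both PD 52 pairs. Bbc3 was lower in P than in L/Z and was the one member to pass the threshold of a test over all genes. In that test of stage, 28.4% of all genes passed. Casp9 was lower at PD 52 than at PD 24 in every matched pair, without passing that threshold. Bcl2l1 had the highest level of the 9 genes and the narrowest range, as the highest level over the lowest.

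**Figure D1:**
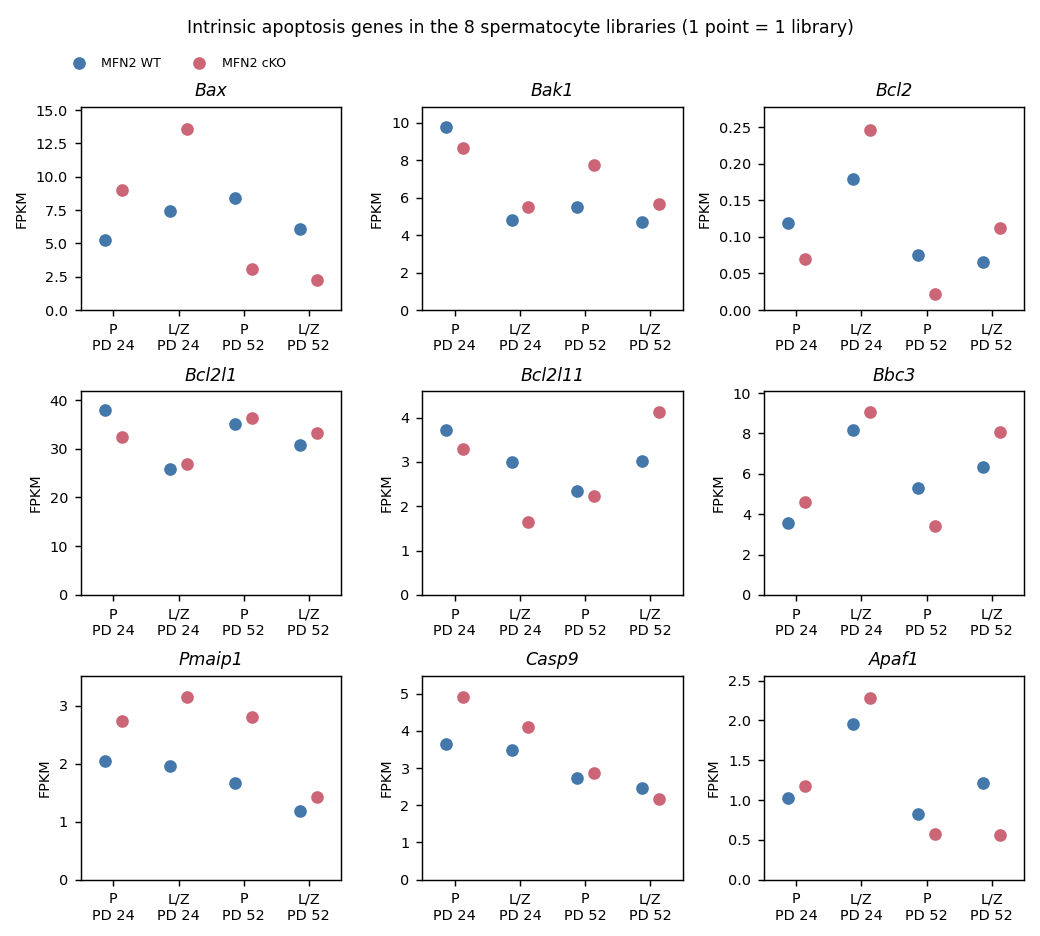
FPKM (y axes, linear, starting at 0) of each of the 9 genes in the 8 libraries, by stage and age on the x axes, with MFN2 WT in blue and MFN2 cKO in red. Each point is 1 library. Bax in cKO lies above WT in both PD 24 pairs and below it in both PD 52 pairs, and Bcl2l1 lies between 25.8 and 38.0 FPKM in all 8 libraries.

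Reads on genes numbered 14340665 to 20379950 a library. Mfn2, the targeted gene, was lower in cKO in 4 of 4 pairs, at 0.513 times the WT level in P and 0.418 times in L/Z at PD 24, and at 0.805 times in P and 0.491 times in L/Z at PD 52. This is a value for the whole gene, which also counts exons outside the deleted one, and the P pair at PD 52 had the smallest difference. The stage labels were checked against marker genes. Of 10 pachytene markers measured, 4 were higher in P and none lower (limma, adjusted p under 0.05), but of 9 leptotene and zygotene markers tested, 2 were lower in P and 3 higher. Of 12 spermatid genes, which belong to later cells, 11 were higher in the L/Z libraries at the same threshold. Their summed FPKM ran from 134 to 5280 in P and from 477 to 21400 in L/Z.

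Of the effectors, Bax lies on chromosome 7 (GRCm38, chr7:45461697-45466898, minus strand). Its promoter is shown because Bax had the widest ratios between genotypes among the 8 tested members, and that of Apaf1, on chromosome 10 (chr10:90989311-91082770, minus strand), because it was the other member that was above WT in cKO in both PD 24 pairs and below it in both PD 52 pairs. The sequences are from RefSeq (GRCm38.p6) and end at the last base before the annotated gene. They cover chr7:45466899-45467148 for Bax and chr10:91082771-91082993 for Apaf1, both read on the minus strand. Capitals mark GCGCATGCG, the core of the motif of NRF1, a factor of nuclear genes for mitochondrial proteins, and CACGTG, an E-box.
Bax: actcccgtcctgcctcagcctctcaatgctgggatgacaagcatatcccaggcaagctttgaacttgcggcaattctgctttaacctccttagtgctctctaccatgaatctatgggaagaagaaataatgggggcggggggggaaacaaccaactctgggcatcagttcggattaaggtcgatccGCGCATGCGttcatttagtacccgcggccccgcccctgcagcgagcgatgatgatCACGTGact
Apaf1: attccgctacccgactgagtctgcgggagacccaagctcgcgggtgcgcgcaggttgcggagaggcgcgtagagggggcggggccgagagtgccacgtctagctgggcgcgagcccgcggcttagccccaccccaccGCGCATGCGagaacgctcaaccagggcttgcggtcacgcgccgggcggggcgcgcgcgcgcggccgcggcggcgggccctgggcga
RefSeq start windows of 300 bases were matched for 8 of the 9 members (13 windows), and Pmaip1 was not among them. Motifs were searched on both strands in these windows and in all 32851 windows of the table. GCGCATGCG was found in the windows of Bax and Apaf1 and of no other member, and in 1.75% of all windows. CACGTG was found for Bax and Bbc3, and in 7.15% of all windows. The GC box GGGCGG was found in 9 of the 13 member windows, from 6 of the 8 members, and in 35.7% of all windows. The CCAAT box CCAAT was in 3 of the 13 and in 37.4% of all windows. The TATA box TATAAA was in 0 of the 13 and in 13.6% of all windows. The p53 element, in its strict form of a pair of half-sites, was found in none of the 13 member windows and in 0.0731% of all windows. The motifs were picked after the sequences had been read, and a match is not a binding site.

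At PD 24 the Bax level was 5.25 FPKM in P WT, 8.97 in P cKO, 7.42 in L/Z WT and 13.6 in L/Z cKO. The PD 52 levels were 8.42 FPKM in P WT, 3.06 in P cKO, 6.06 in L/Z WT and 2.26 in L/Z cKO. The highest and the lowest of the 8 levels were thus both in L/Z cKO libraries, 6.01 times apart, whereas the 4 WT libraries lay between 5.25 and 8.42 FPKM. The ratio of cKO to WT in P was 1.71 at PD 24 (95% interval 1.4 to 2.09, from 167 and 263 reads) and 0.363 at PD 52 (0.273 to 0.478, from 213 and 70 reads). In L/Z it was 1.83 at PD 24 (1.54 to 2.17, from 221 and 379 reads) and 0.372 at PD 52 (0.266 to 0.515, from 143 and 52 reads). These are exact binomial intervals from reads recovered from the FPKM, and they cover counting error only, not the difference between mice. Of the Bax exon bases, 12.2% are shared with Gm45808, which was listed at 0 in every library. At each age the intervals of P and L/Z overlapped. In such bulk samples, fewer cells of a type and less RNA per cell cannot be told apart.

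A change in a pair was called when log2(FPKM + 1) differed by at least 1, which is 2-fold on that scale, among genes with FPKM above 1 in at least 1 of the 2 libraries. With 1 library a group there is no test of a single pair. At PD 52 Bax passed, with a log2 difference of -1.21 in P and -1.12 in L/Z. It was the only member called at PD 52, 1 of 7 members measurable in P and 1 of 8 in L/Z, where 11.0% and 7.95% of all genes were called. At PD 24 none of 8 members was called in P, where 8.08% of all genes were, and none of 8 in L/Z, where 10.5% were. On the log2(FPKM + 1) scale Bax was 0.67 higher in P cKO and 0.79 higher in L/Z cKO at PD 24.

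**Figure D2:**
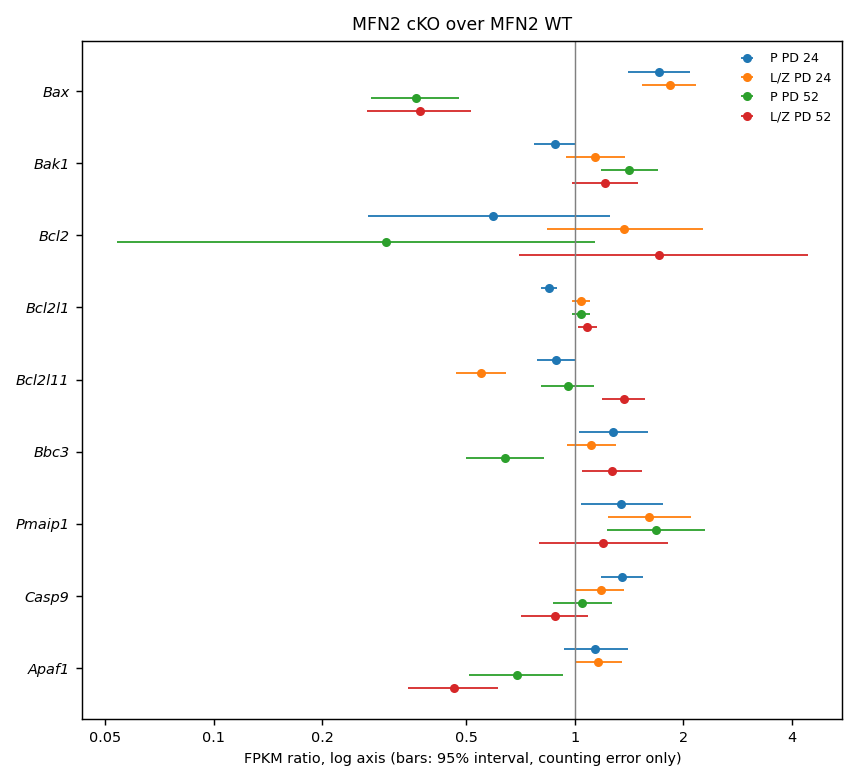
Ratio of FPKM in MFN2 cKO to MFN2 WT (x axis, log scale) for the 9 genes, with 1 point for each of the 4 pairs and bars for the 95% exact binomial interval, which covers counting error only. The 4 Bax intervals exclude 1, on the high side at PD 24 and on the low side at PD 52, while the 4 Bcl2 intervals are wide and include 1.

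Whether the genotype difference itself differed between the ages was tested by limma over the 4 pairs, on log2(FPKM + 1). For Bax the cKO minus WT difference was 1.90 lower at PD 52 than at PD 24 (log2 -1.90, SE 0.26, 95% interval -2.52 to -1.27, unadjusted p = 0.000286, adjusted p = 0.0775). It did not pass the threshold of 0.05 in this fit. It passed with limma voom on the recovered reads (log2 -2.26, adjusted p = 0.0123), and over the 8 alternatives the adjusted p ran from 0.0123 to 0.986 with the log2 value between -2.26 and -1.83. An unadjusted p under 0.05 was reached by 12.5% of all genes in this test and an adjusted one by 0.0142%. Of the 8 tested members, Bax was the only one with an unadjusted p under 0.05. Bax and Apaf1 were the 2 of 8 tested members above WT in both PD 24 pairs and below it in both PD 52 pairs, and 8.52% of all genes tested had that order.

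Marker genes of other germ cells differed between the genotypes as well. The summed FPKM of 8 spermatogonia markers differed in the direction of Bax in each pair. It was 86.8 in WT and 97.9 in cKO for P, and 103 and 147 for L/Z at PD 24. At PD 52 it was 95 in WT and 47.4 in cKO for P, and 80.9 and 41.6 for L/Z. None of the 8 markers was listed at 0 in any library. At PD 24, 7 of the 8 were higher in cKO in P and 8 of 8 in L/Z. At PD 52, 6 of 8 were lower in L/Z, but in P 4 were lower and 4 higher, with a median log2 difference of 0.00. Most of the sum lay in Uchl1 and Dmrt1. In P at PD 52, Uchl1 had 51.6 FPKM in WT and 18.0 in cKO, and Dmrt1 21.1 and 8.37. In the test of the genotype difference between ages, 2 of the 8 had an unadjusted p under 0.05, with a median of -0.70 over the list. The 12 spermatid markers differed the other way at PD 24, with 12 of 12 lower in cKO in both stages. Their sum was 1380 in WT and 134 in cKO for P, and 2780 and 477 for L/Z. At PD 52 it was 5280 and 2500 for P, with 11 of 12 lower in cKO, but 12100 and 21400 for L/Z, with 12 of 12 higher. In the test between ages, 12 of 12 had an unadjusted p under 0.05 and none an adjusted one, with a median of 2.32. No spermatid marker was listed at 0 in any library. The part of either list in the Bax result was not tested.

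**Figure D3:**
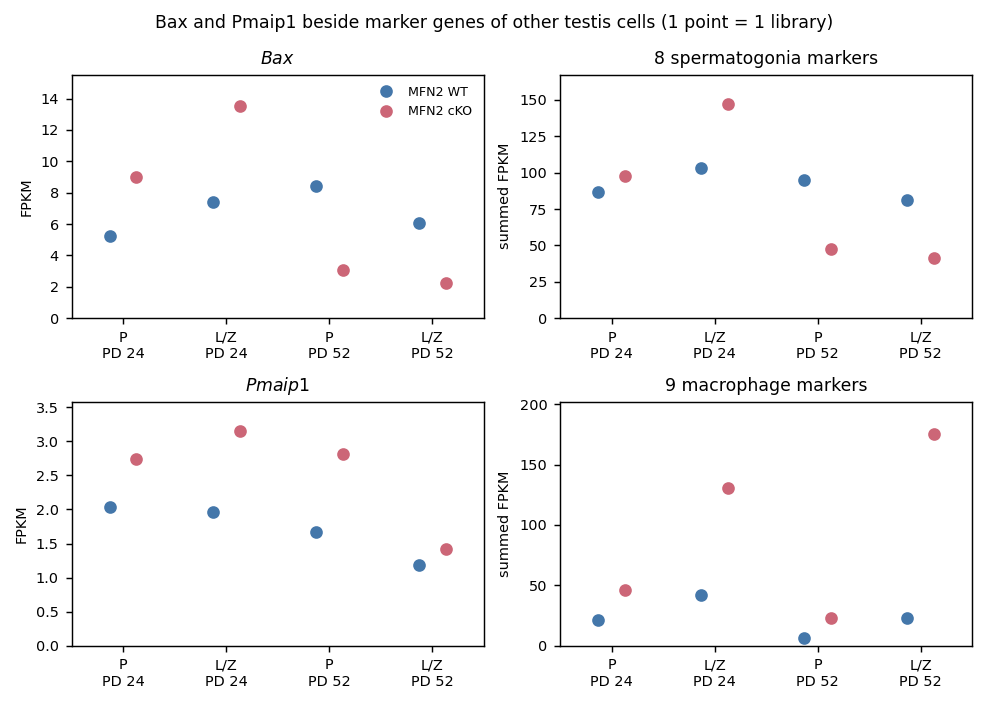
FPKM of Bax and of Pmaip1 (left) beside the summed FPKM of 8 spermatogonia markers and of 9 macrophage markers (right), each axis linear and starting at 0, in the 8 libraries (1 point each) with MFN2 WT in blue and MFN2 cKO in red. The spermatogonia sum in cKO is above WT at PD 24 and below it at PD 52, as the Bax level is, and both Pmaip1 and the macrophage sum are above WT in 4 of 4 pairs. In P at PD 52, 4 of the 8 spermatogonia markers were higher in cKO.

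Bak1, which encodes the other effector, lies on chromosome 17 (chr17:27019810-27029009, minus strand). Its levels at PD 24 were 9.80 FPKM in P WT, 8.64 in P cKO, 4.79 in L/Z WT and 5.48 in L/Z cKO. At PD 52 they were 5.49 FPKM in P WT, 7.76 in P cKO, 4.69 in L/Z WT and 5.68 in L/Z cKO. P was above L/Z in 4 of 4 matched pairs, though P WT at PD 52 lay below the highest L/Z level. The difference of P minus L/Z was 0.51 (SE 0.16, 95% interval 0.13 to 0.89, limma adjusted p = 0.052), outside the threshold here and inside it with limma voom (0.61, adjusted p = 0.0403) and without the WT pair of PD 52 (0.62, adjusted p = 0.0481). Over all 9 alternatives the adjusted p ran from 0.0403 to 0.214. Of the Bak1 exon bases, 25.5% overlap Ggnbp1 on the other strand, which had 103 to 182 FPKM. The library kit does not mark strand, so reads of the overlap cannot be assigned to one or the other gene.

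In each pair the Bax to Bak1 ratio of FPKM differed between cKO and WT in the direction of Bax. It was 0.536 in P WT, 1.04 in P cKO, 1.55 in L/Z WT and 2.47 in L/Z cKO at PD 24. The PD 52 ratios were 1.53 in P WT and 1.29 in L/Z WT, against 0.395 in P cKO and 0.397 in L/Z cKO. By FPKM, Bak1 had the higher level of the 2 effectors in both cKO libraries of PD 52 and in P WT of PD 24, where the 95% counting intervals stayed below 1. These intervals do not cover the reads of the overlap with Ggnbp1, which cannot be assigned to one gene.

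Bcl2l1 encodes BCL-xL, the survival protein that germ cells are known to use, and lies on chromosome 2 (chr2:152780668-152831728, minus strand). At PD 24 its level was 38.0 FPKM in P WT, 32.4 in P cKO, 25.8 in L/Z WT and 26.8 in L/Z cKO. By PD 52 it stood at 35.0 FPKM in P WT, 36.4 in P cKO, 30.8 in L/Z WT and 33.3 in L/Z cKO. The highest level was 1.47 times the lowest, the narrowest range of the 9 genes. P was above L/Z in 4 of 4 pairs, by 0.28 on the log2(FPKM + 1) scale (SE 0.15, 95% interval -0.08 to 0.63, limma adjusted p = 0.203). The difference of cKO and WT over the 4 pairs was within -0.35 to 0.35 (95% interval, adjusted p = 1).

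Bcl2, the founding anti-apoptotic member, lies on chromosome 1 (chr1:106538178-106714274, minus strand) and was close to the limit of detection. Its level was between 0.0226 and 0.246 FPKM, from 3 to 40 reads a library. The ratio of cKO to WT in P was 0.592 at PD 24 (95% interval 0.267 to 1.25) and 0.301 at PD 52 (0.054 to 1.14). In L/Z it was 1.37 at PD 24 (0.838 to 2.27) and 1.71 at PD 52 (0.7 to 4.42). All 4 intervals included 1, so a genotype difference in Bcl2 was not detectable at this depth. Of its 50-base windows, 5.25% also occur in other genes, so some of these reads could belong elsewhere.

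The level of Bax relative to Bcl2l1, an effector beside its inhibitor, followed Bax. The FPKM ratio of Bax to Bcl2l1 was 0.138 in P WT and 0.277 in P cKO at PD 24, and 0.288 in L/Z WT and 0.505 in L/Z cKO. The ratios of PD 52 were 0.241 in P WT and 0.0841 in P cKO, and 0.197 in L/Z WT and 0.0678 in L/Z cKO. The cKO libraries thus held both the highest and the lowest of the 8 ratios. The ratio of Bak1 to Bcl2l1 stayed between 0.152 and 0.267 in the 8 libraries.

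Among the BH3-only genes, Bbc3 (PUMA) lies on chromosome 7 (chr7:16308393-16318205, plus strand). In L/Z its level was 8.15 FPKM in WT and 9.05 in cKO at PD 24, and 6.32 in WT and 8.05 in cKO at PD 52. In P it was 3.57 FPKM in WT and 4.58 in cKO at PD 24, and 5.31 in WT and 3.41 in cKO at PD 52. Every P library was below every L/Z library. The mean was 4.22 FPKM ± 0.896 (SD, n = 4) in P and 7.89 ± 1.14 in L/Z, where the 4 libraries differ in genotype and age. The P minus L/Z difference was -0.78 on the log2(FPKM + 1) scale (SE 0.18, 95% interval -1.20 to -0.36, limma adjusted p = 0.0187), lower in P in 4 of 4 pairs.

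Bbc3 was 1 of 8 members called for stage, where 28.4% of all genes were called. It was also 1 of 8 members whose P and L/Z libraries did not overlap, which held for 15.7% of all genes. The call was lost without the WT pair of PD 24 (log2 -0.70, adjusted p = 0.127), without the cKO pair of PD 24 (-0.75, adjusted p = 0.0768), without the cKO pair of PD 52 (-0.69, adjusted p = 0.113) and with no filter on low values (-0.78, adjusted p = 0.0609). Without the WT pair of PD 24 or the cKO pair of PD 52, limma called none of the 21175 genes for stage, although 6466 and 6960 had an unadjusted p under 0.05. The WT pair of PD 52 had the smallest Bbc3 difference, with a P to L/Z ratio of 0.84 (95% interval 0.683 to 1.03), against 0.438, 0.506 and 0.423 in the other pairs. Marker genes of other cells moved with stage as well. All 9 Sertoli markers were called higher in P by limma (summed FPKM 230 to 536 in P and 16.6 to 175 in L/Z). Called lower in P were 4 of 4 peritubular myoid markers tested (5.11 to 32.5 in P, 46.5 to 160 in L/Z). So were 8 of 9 macrophage markers (6.31 to 46.4 in P, 23.1 to 175 in L/Z). Of 8 spermatogonia markers, 4 were called lower in P and 1 higher. The part of these lists in the Bbc3 result, and that of the spermatid genes, was not tested.

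Pmaip1 (NOXA) lies on chromosome 18 and was the one member with a higher level in cKO in all 4 pairs. At PD 24 it was 2.04 FPKM in P WT, 2.74 in P cKO, 1.96 in L/Z WT and 3.15 in L/Z cKO. The PD 52 libraries had 1.67 FPKM in P WT, 2.81 in P cKO, 1.19 in L/Z WT and 1.42 in L/Z cKO. The WT and cKO levels overlapped, since the L/Z cKO library of PD 52 was below 3 of the 4 WT libraries. The ratio of cKO to WT in P was 1.34 at PD 24 (95% interval 1.04 to 1.75) and 1.68 at PD 52 (1.23 to 2.3). In L/Z it was 1.61 at PD 24 (1.24 to 2.1) and 1.2 at PD 52 (0.797 to 1.81).

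Over the 4 pairs the Pmaip1 difference of cKO minus WT was 0.36 (SE 0.14, 95% interval 0.02 to 0.71, limma unadjusted p = 0.0418, adjusted p = 0.697), so it did not pass the threshold. It was 1 of 8 tested members above WT in all 4 pairs, and 7.74% of all genes were. Summed macrophage markers were also above WT in 4 of 4 pairs (6.31 to 42.1 FPKM in WT, 22.7 to 175 in cKO), and so were summed Leydig markers (20.7 to 261 FPKM in WT, 102 to 666 in cKO). In each pair all 8 Leydig markers were higher in cKO, as were 7 to 9 of the 9 macrophage markers, which is every one of those that passed the filter. No marker of either list was at 0 in any library. Of the 29 genes called for genotype by limma (0.137% of those tested, 28 higher and 1 lower in cKO), 4 were Leydig markers and none was a member. Their part in the Pmaip1 levels was not tested.

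Bcl2l11 (BIM) lies on chromosome 2 (chr2:128126038-128162547, plus strand). At PD 24 its level was 3.72 FPKM in P WT, 3.29 in P cKO, 3.0 in L/Z WT and 1.65 in L/Z cKO. In the PD 52 libraries it was 2.34 FPKM in P WT, 2.24 in P cKO, 3.01 in L/Z WT and 4.12 in L/Z cKO. The lowest and highest levels were both in L/Z cKO libraries, as with Bax, but with the ages exchanged. In L/Z the ratio of cKO to WT was 0.55 at PD 24 (95% interval 0.468 to 0.645) and 1.37 at PD 52 (1.19 to 1.57). In P it was 0.886 (0.785 to 1.0) and 0.955 (0.806 to 1.13). The test of whether the genotype difference differed between ages gave 0.52 (SE 0.30, 95% interval -0.22 to 1.25, limma adjusted p = 0.544).

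Of the apoptosome genes, Apaf1 encodes the scaffold that cytochrome c activates. At PD 24 its level was 1.03 FPKM in P WT, 1.18 in P cKO, 1.96 in L/Z WT and 2.28 in L/Z cKO. At PD 52 it was 0.828 FPKM in P WT, 0.572 in P cKO, 1.21 in L/Z WT and 0.561 in L/Z cKO. The ratio of cKO to WT at PD 52 was 0.691 in P (95% interval 0.511 to 0.93) and 0.462 in L/Z (0.346 to 0.612, from 164 and 74 reads). At PD 24 it was 1.14 in P (0.931 to 1.4) and 1.16 in L/Z (1.0 to 1.35). The difference between the ages in the genotype effect was -0.49 (SE 0.29, 95% interval -1.20 to 0.23, limma adjusted p = 0.557). At these low levels the pseudocount of 1 shrinks the differences, and in L/Z at PD 52 the log2 change of -0.50 became -1.11 as a ratio of recovered reads, past 2-fold.

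Casp9, the initiator caspase that APAF1 activates, lies on chromosome 4 (chr4:141793612-141815976, plus strand). At PD 24 its level was 3.64 FPKM in P WT, 4.92 in P cKO, 3.49 in L/Z WT and 4.11 in L/Z cKO. At PD 52 it was 2.72 FPKM in P WT, 2.86 in P cKO, 2.46 in L/Z WT and 2.16 in L/Z cKO. Every PD 52 library was below every PD 24 library, with means of 2.55 FPKM ± 0.311 (SD, n = 4) and 4.04 ± 0.644. The PD 52 minus PD 24 difference was -0.50 (SE 0.14, 95% interval -0.85 to -0.16, limma unadjusted p = 0.0117, adjusted p = 0.0593), lower in 4 of 4 pairs and outside the threshold. Over its 9 alternatives the adjusted p ran from 0.0509 to 0.231. Casp9 was 1 of 8 members whose ages did not overlap, which held for 13.4% of all genes.

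Apaf1 was lower at PD 52 in 4 of 4 pairs too, with overlapping levels (-0.53, SE 0.19, 95% interval -1.0 to -0.06, limma adjusted p = 0.106). Bax differed between ages mainly in cKO, where the ratio of PD 52 to PD 24 was 0.341 in P (95% interval 0.258 to 0.446) and 0.166 in L/Z (0.122 to 0.223). In WT it was 1.6 in P (1.3 to 1.98) and 0.817 in L/Z (0.657 to 1.01). None of the 8 members was called for age, where limma called 17.3% of all genes, and 2 of 8 members (Casp9 and Apaf1) had an unadjusted p under 0.05, as 37.6% of all genes did. Spermatid genes differed with age in the other direction, with 11 of 12 higher at PD 52 (summed FPKM 134 to 2780 at PD 24 and 2500 to 21400 at PD 52), and 5 of 9 Sertoli markers were lower at PD 52 and none higher. Their part in the Casp9 and Apaf1 levels was not tested.

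**Figure D4:**
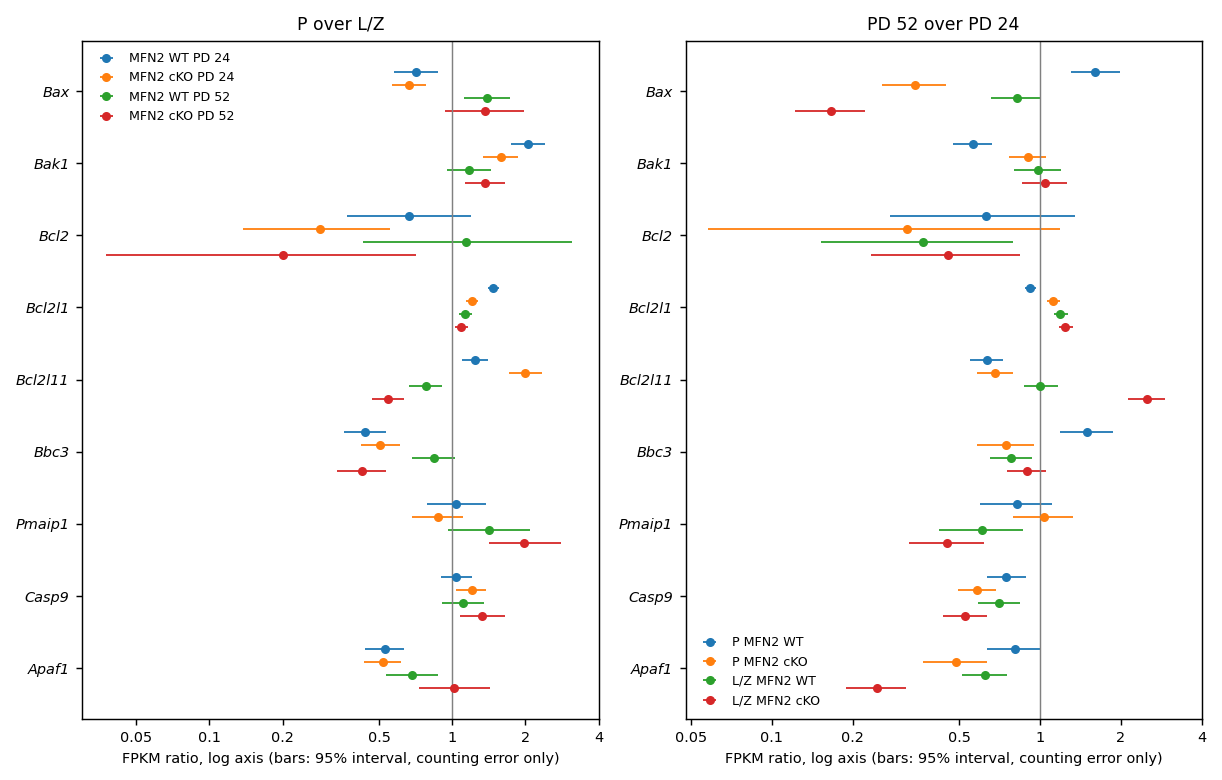
Ratio of FPKM of P to L/Z (left) and of PD 52 to PD 24 (right) for the 9 genes, on log x axes, with 1 point for each of the 4 matched pairs and bars for the 95% exact binomial interval, which covers counting error only. The 4 Bbc3 points lie below 1 on the left (0.423 to 0.84), and the 4 Casp9 points lie below 1 on the right (0.525 to 0.747).

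Over all members, the genotype difference was called for 0 of 8 by limma, with 1 of 8 (Pmaip1) at an unadjusted p under 0.05, as were 6.93% of all genes, and with 0 called by limma voom. No member had all 4 cKO libraries above or below all 4 WT libraries, which held for 0.911% of all genes. A different genotype effect in P and L/Z was called for 0 of 8 members and 0% of all genes, with 876 genes at an unadjusted p under 0.05 and 0 genes called with limma voom. The median log2 difference of the measurable members between cKO and WT was 0.19 in P and 0.16 in L/Z at PD 24, and 0.05 in P and 0.13 in L/Z at PD 52. Over all genes it was -0.10, 0.08, -0.05 and 0.02 in the same order. The comparisons of genotype, stage and age use the same 8 libraries and are not independent of each other.

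**Figure D5:**
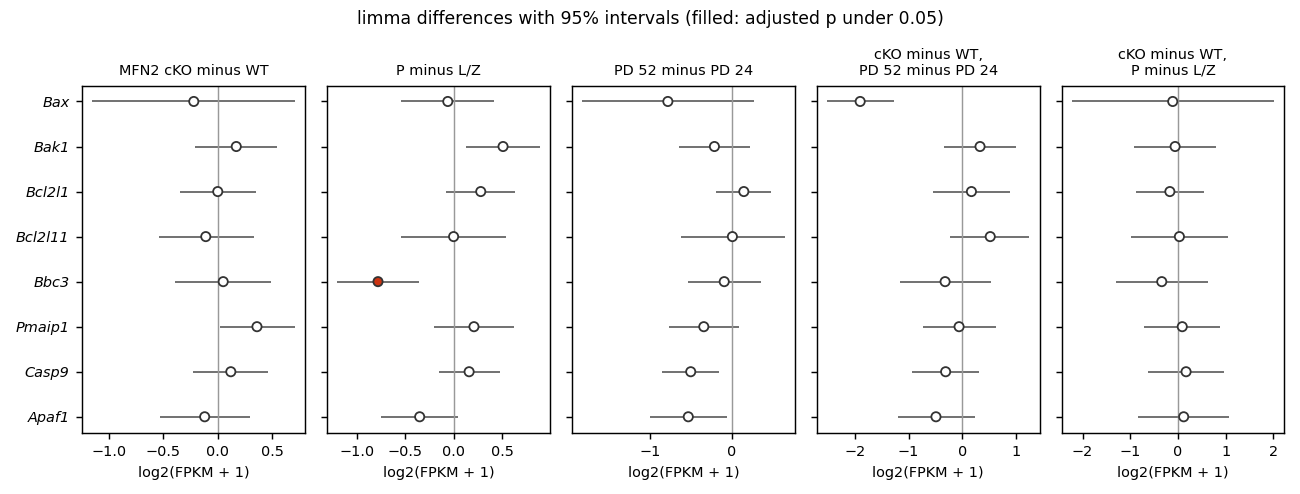
Differences of log2(FPKM + 1) fitted by limma (x axes) for the 8 tested genes, with bars for the 95% interval, for genotype, stage, age, and the difference of the genotype effect between ages and between stages. The filled point is the 1 value with an adjusted p under 0.05, Bbc3 for P minus L/Z at -0.78, and Bax lies at -1.90 in the fourth panel with an adjusted p of 0.0775.

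The rest of the pathway was followed in 52 further genes, of which 45 passed the filter on low values. None was called for genotype by limma, where 0.137% of all genes were. An unadjusted p under 0.05 was reached by 1 of the 45, and by 6.93% of all genes. For stage 6 of 45 were higher in P and 0 lower, where 12.4% of all genes were called higher and 16.0% lower. These were Bcl2l2 (anti-apoptotic BCL-w, 1.14, adjusted p = 0.00842), Diablo (an antagonist of the inhibitors of apoptosis, 0.96, adjusted p = 0.00654), Cyct (the testis form of cytochrome c, 0.96, adjusted p = 0.014), Htra2 (a mitochondrial protease, 0.52, adjusted p = 0.0302), Sesn2 (a stress gene, 1.36, adjusted p = 0.00395) and Trp53 (p53, 0.49, adjusted p = 0.0447), as log2(FPKM + 1) differences of P minus L/Z by limma. Those named by list were 1 of 8 other BCL2 family genes, 3 of 9 release factors and channels, and 2 of 9 genes of p53, its regulators and targets. None of the 4 other caspases, the 5 inhibitors of apoptosis or the 10 extrinsic pathway genes was called for stage.

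For age 5 of 45 were lower at PD 52 and 1 higher, where 5.41% of all genes were called lower and 11.9% higher. The lower ones were Sesn2 (-0.93, limma adjusted p = 0.0251), Trp53 (-0.78, adjusted p = 0.026), Ripk1 (a kinase of death receptor signalling, -0.78, adjusted p = 0.0288), Fas (the death receptor, -0.75, adjusted p = 0.0471) and Mcl1 (an anti-apoptotic BCL2 relative, -0.48, adjusted p = 0.0496). The higher one was Fasl, the ligand of FAS (0.78, adjusted p = 0.0499). The median age difference was -0.48 over the 45 genes, -0.28 over the 8 members and 0.00 over all genes. Trp53, upstream of Bbc3 and Pmaip1, fell from between 5.30 and 7.97 FPKM at PD 24 to between 2.35 and 4.56 FPKM at PD 52.

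Of the 52 genes, those that reached 2-fold between cKO and WT at PD 24 were 0 of 40 measurable in P and 0 of 41 in L/Z, beside 8.08% and 10.5% of all genes. In P at PD 52 it was 3 of 38, beside 11.0% of all genes, namely Cycs (somatic cytochrome c) at 14.6 FPKM in WT and 5.53 in cKO (ratio 0.377, 95% interval 0.328 to 0.433), Phlda3 (a p53 target) at 2.52 and 0.663 (0.263, 0.139 to 0.468), and Fas at 0.208 and 1.57 (7.55, 3.19 to 21.8). In L/Z at PD 52 it was 2 of 36, beside 7.95% of all genes, with Cdkn1a (the cell cycle inhibitor p21) at 1.52 FPKM in WT and 5.53 in cKO (ratio 3.63, 2.83 to 4.7) and Vdac1 (an outer membrane channel) at 2.07 and 6.19 (3.0, 2.32 to 3.9).

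The 3 members with the widest range of log2(FPKM + 1) were Bax, Bbc3 and Apaf1. The genes with the most similar profiles over the 8 libraries were found by the root mean square difference of centered log2(FPKM + 1), among 14058 protein-coding genes. For Bax the nearest was Rpa2, a subunit of the single-strand DNA binding protein RPA, at a distance of 0.135, where Bax itself varied by 0.66 around its mean. Rpa2 had 11.1 FPKM in P WT, 14.4 in P cKO, 14.3 in L/Z WT and 22.2 in L/Z cKO at PD 24, and 16.6, 7.11, 10.1 and 4.69 in the same order at PD 52. Bex1 (0.174) and Tcf19 (0.179) followed. For Apaf1 the nearest was Casp2, the gene of another initiator caspase, at a distance of 0.0583, followed by Dgkz (0.0635) and Zfyve9 (0.0739). For Bbc3 they were Tubb2a (0.144), Emd (0.149) and Mgmt (0.151). These distances describe 8 libraries and were not tested.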

How the data were processed

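RNA-seq was performed by the authors with paired-end reads on 8 spermatocyte libraries, 1 per group. The authors normalized the reads to FPKM with Novomagic and deposited 1 table of FPKM values with gene lengths. The submitters' processing notes name CASAVA 1.4, Bowtie 0.12.2 and the builds mm8 and mm9 without a role, but 98.1% of the deposited gene coordinates are identical to GENCODE M21, which is on GRCm38, and that build is used here. The members and gene lists were chosen with earlier results of these data known.

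FPKM multiplied by gene length gave whole multiples of 1 step per library (100% of values above 0 within 0.05 of a whole read), which gives the reads. Genes with FPKM above 1 in at least 1 library (21175) were tested on log2(FPKM + 1) with limma 3.58.1 (R 4.3.3, eBayes with trend) and Benjamini-Hochberg adjustment over all of them, called at an adjusted p under 0.05. The 4 matched pairs of each comparison formed a block, which comes from the crossed design and not from replicate numbers. The genotype by age and genotype by stage differences were fitted to all 8 libraries with the pair as a block and an interaction term. Each group holds 1 library, so the spread is that between pairs and the p-values carry no error between mice of a group. The scripts were tested on simulated data, where the fits of genotype, stage and age recovered nearly all changed genes. The interaction fits gave the right direction but left most changed genes short of the threshold. Whether the fits of genotype, stage and age recover differences of the size measured for the members was not tested. Ratios used exact binomial (Clopper-Pearson) intervals in scipy 1.17.1. The 9 members are named throughout; other pathway genes are named if called by limma or among the 3 largest changes of at least 2-fold in each direction of a pair. Alternatives were a pseudocount of 0.1, no filter, a further median-of-ratios scaling, limma voom or ratios of recovered reads (0.5 read added), no block, and each pair left out.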

Additional observations from a re-analysis of the deposited data

Results flagged for a closer look

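The cKO to WT ratio of 3 of the 9 genes took opposite directions in the 2 groups compared, in every pair. For Bax the mean log2 ratio of FPKM was 0.82 at PD 24 and -1.44 at PD 52, a difference of -2.26. The Apaf1 mean was 0.21 at PD 24 against -0.82 at PD 52, with -1.03 between them. The limma test between ages was made on log2(FPKM + 1), where both differences were smaller. Its adjusted p was 0.0775 for Bax and 0.557 for Apaf1. For Bcl2 it was 0.61 in L/Z and -1.24 in P, a difference of -1.86, which rests on 3 to 40 reads a library. Bcl2 stayed under the filter on low values, and without the filter the limma test of the difference between stages gave -0.14 on the log2(FPKM + 1) scale (SE 0.08, adjusted p = 0.919).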

How the results depend on the processing

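With 1 library in each group no count in a single pair has a replicate check, and depth limits Bcl2 above all. The count of members changed at least 2-fold in L/Z at PD 52 went from 1 to 2 (Apaf1 added) as a ratio of recovered reads, and the other 3 pair counts kept their value under every alternative. The count of members called for stage, 1 as reported, was 0 to 2 with each pair left out, 0 without the filter on low values and 3 (Bbc3, Bak1 and Apaf1) with limma voom. The count for genotype by age went from 0 to 1 (Bax) with limma voom. The counts for genotype, age and genotype by stage stayed at 0 under every alternative. With the further scaling the uncalled value of Bcl2l11 in P at PD 52 changed sign, from -0.05 to 0.02 on the log2(FPKM + 1) scale. That of Bcl2l1 in L/Z at PD 24 went from 0.05 to -0.00. No paired analysis by replicate number was possible because each group has 1 library; without the block for the matched pair, Bbc3 stayed called for stage (log2 -0.78, adjusted p = 0.0481).

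Over all genes, the 6013 called for stage became 1145 without the block and 3010 with no filter, the 3669 for age became 1 and 791, and the 29 for genotype became 3 and 0, with 114 for genotype under limma voom and 7 with a pseudocount of 0.1. With each pair left out the ranges were 0 to 5000 for stage, 0 to 3937 for age and 0 for genotype. For genotype by age the 3 called became 624 with limma voom, 74 with a pseudocount of 0.1, and 0 with no filter, with the further scaling and with each pair left out.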
